A study of Mus musculus with 7 samples.

Results

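The 10 genes described here are Trp53, which encodes the transcription factor p53, and 9 of its best known target genes: Mdm2, Cdkn1a, Ccng1, Gadd45a, Plk2, Bax, Bbc3, Phlda3 and Sesn2. They were taken by symbol from a count table of 35976 mouse genes, and 10 of 10 were found and passed the filter on low counts. The table came from 7 RNA-seq libraries of dissociated amygdala, in which astrocytes had been enriched on magnetic beads against the surface antigen ACSA-2. The libraries sgEgfr 1 to 3 came from male C57BL/6J mice whose amygdala received adeno-associated virus (AAV) with a guide RNA against Egfr, the epidermal growth factor receptor gene. The libraries sgRosa 1 to 4 came from male C57BL/6J mice that received the same kind of virus with a guide against the Rosa26 locus, a site often used as a neutral target. In both groups Cas9 was driven by the astrocyte promoter GfaABC1D, expression lasted more than 2 weeks, and the mice then went through tube restraint on 7 days, fear conditioning on 1 day and extinction on 3 days. The sources used here give neither the age of the mice, the positions of the guides nor the share of cells that the virus reached. Every group thus carried Cas9, a cutting guide and the stress protocol, and no uncut or unstressed sample was analysed here, so a level of these genes without cutting cannot be given.

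p53 is made continuously and destroyed quickly, because MDM2 marks it for breakdown. DNA double-strand breaks, such as those Cas9 makes, activate kinases that free p53 from MDM2, and p53 then switches on genes that stop the cell cycle, restrain growth or start apoptosis. Mdm2 is itself a target, which closes a feedback loop, and control of p53 lies mostly in its protein, so its mRNA need not follow its activity. Several targets have other inducers as well, among them growth factors, glucocorticoids and neuronal activity.

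The libraries held 14983594, 17096879 and 22579222 counts for sgEgfr 1 to 3, and 14198048, 18345655, 9890649 and 5852870 counts for sgRosa 1 to 4. A count of 3, the limit that 0 counts allow, stood for 0.133 to 0.513 CPM (counts scaled to a common library total), and all 10 genes lay above it in every library. Over genes, sgRosa 3 and sgRosa 4 differed by a chi-square of 1.04 per degree of freedom, where sampling noise gives 1, against 14.8 to 158 for the other 20 pairs of libraries. Their counts were added up as sgRosa 3+4, so each group had 3 samples. The labels do not state that libraries came from separate mice, so p-values measure the spread between these samples, which may be technical. Markers of myelinating oligodendrocytes took 8.13% to 14.4% of counts in sgEgfr and 7.23% to 10.8% in sgRosa, against 0.999% to 1.36% and 0.761% to 1.53% for astrocyte markers, with none of the 15 astrocyte markers at 0 in any sample. In such mixed cells, fewer cells of a type and less RNA per cell cannot be told apart. Egfr itself had 169, 87 and 184 counts in sgEgfr 1 to 3 and 188, 55, 109 and 58 counts in sgRosa 1 to 4, a log2 fold change of -0.13 (SE 0.54, edgeR adjusted p = 0.997). Small insertions or deletions need not lower an mRNA, so this does not test whether the locus was cut.

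Cdkn1a was the only one of the 10 genes with groups that did not overlap, and it stood 2.57-fold higher in sgEgfr, but it did not pass the test across all genes. The other 9 lay between log2 fold changes of -0.21 and 0.36, with a median of 0.11, and their groups overlapped. With edgeR's quasi-likelihood test, 0 of the 10 genes and 0 of 14936 genes tested (0%) had an adjusted p under 0.05. Before adjustment, 1 of the 10 genes had a p under 0.05, against 401 of all genes (2.68%), of which 196 were higher (1.31%) and 205 lower (1.37%) in sgEgfr. Groups that did not overlap were found for 1 of the 10 genes and for 7.61% of all genes, with sgEgfr higher for 3.76% and lower for 3.85%. Over all genes tested the median log2 fold change was 0.02.

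**Figure D1:**
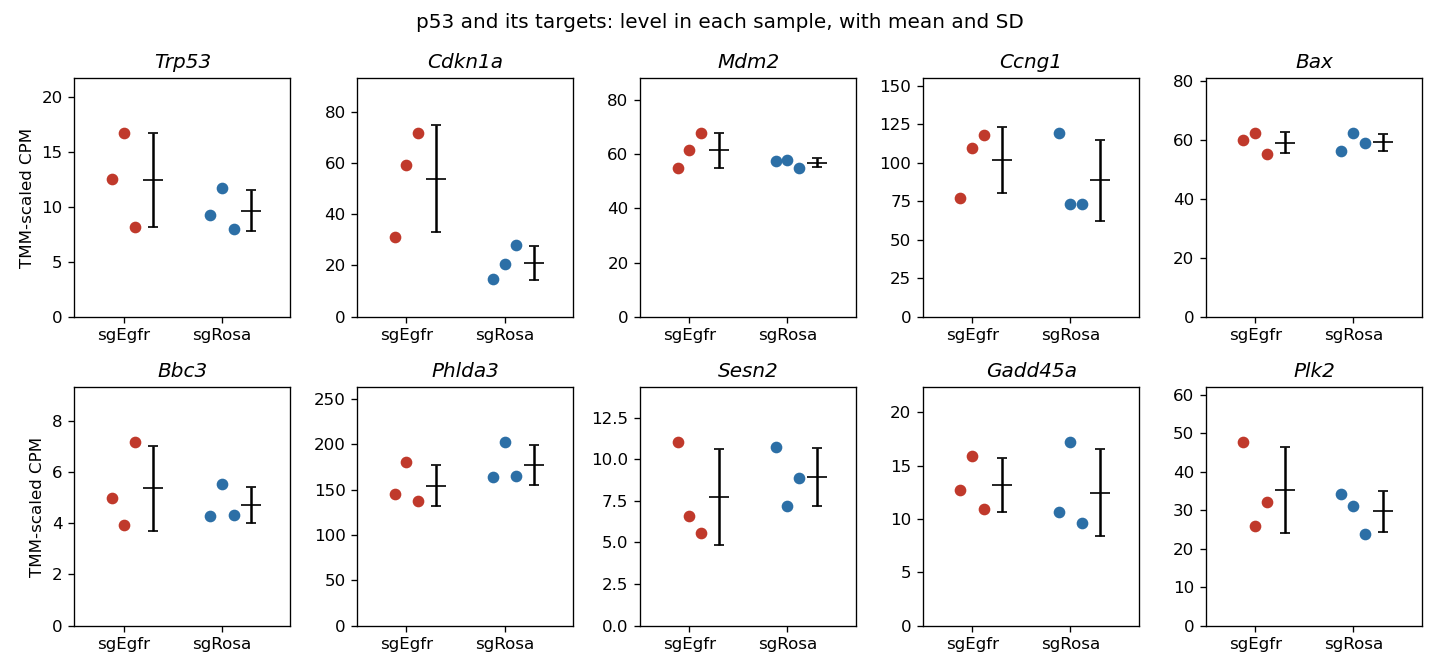
Level of each of the 10 genes in TMM-scaled CPM, on axes that start at 0, in 3 sgEgfr samples (red, left) and 3 sgRosa samples (blue, right). Each point is a sample, and the bar beside the points is the mean with its SD. The groups are apart for Cdkn1a, with 31.0 to 71.6 CPM in sgEgfr and 14.5 to 27.9 CPM in sgRosa, and overlap for the other 9 genes.

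Cdkn1a encodes p21, an inhibitor of cyclin-dependent kinases that carries out the p53-dependent arrest of the cell cycle. It had 489, 903 and 1637 counts in sgEgfr 1 to 3, and 205, 394, 280 and 159 counts in sgRosa 1 to 4. Scaled with TMM, these were 31.0, 59.1 and 71.6 CPM in sgEgfr 1 to 3 and 14.5, 20.6 and 27.9 CPM in sgRosa 1, 2 and 3+4. The gap between the groups was narrow, since the lowest sgEgfr sample, sgEgfr 1, lay just above the highest sgRosa sample, sgRosa 3+4, while sgEgfr 2 and sgEgfr 3 were far above all sgRosa samples. Means were 53.9 ± 20.8 CPM in sgEgfr and 21.0 ± 6.73 CPM in sgRosa (SD, n = 3 each). This gave a log2 fold change of 1.36 (SE 0.35, 95% confidence interval 0.54 to 2.18, unadjusted p = 0.00541, edgeR adjusted p = 0.997), and its p ranked 14 of 14936. On the linear scale the interval ran from 1.45-fold to 4.54-fold. Without sgEgfr 3 the log2 fold change was 1.10, and without sgRosa 1 it was 1.15. The rank of p for Cdkn1a depended on the processing. It was 1 with the replicate number as a block, 158 without sgEgfr 3 and 579 without sgRosa 2 and sgEgfr 3 together.

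Windows of 300 bases at the RefSeq start sites (GRCm38.p6, 250 bases before the start and 50 after) were searched for the p53 half-site consensus, the 10-base unit of which a full p53 binding element holds a pair. The consensus reads the same on both strands, so each match stands for both. Of 13 windows of the 10 genes, 6 held a match (46.2%), against 8.36% of 32851 windows of all genes and 7.0% of 14451 windows of genes tested. The 10 genes were chosen as p53 and its known targets, so this share says nothing about these samples. The 6 windows belonged to Cdkn1a, Mdm2, Trp53, Ccng1, Bax and Gadd45a. They are shown so that the letters near the start of Cdkn1a can be read beside those of the other 5 genes, which match the same consensus with different letters. Capitals mark the half-sites, and each sequence runs 5′ to 3′ on the strand of its gene.
Cdkn1a, chr17:29090886-29090957, plus strand: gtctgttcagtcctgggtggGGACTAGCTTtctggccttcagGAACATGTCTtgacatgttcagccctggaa
Mdm2, chr10:117710915-117710964, minus strand: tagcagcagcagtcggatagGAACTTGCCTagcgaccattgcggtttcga
Trp53, chr11:69580264-69580313, plus strand: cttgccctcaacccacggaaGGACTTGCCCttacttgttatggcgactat
Ccng1, chr11:40755442-40755491, minus strand: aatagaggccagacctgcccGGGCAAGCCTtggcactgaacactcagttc
Bax, chr7:45467070-45467119, minus strand: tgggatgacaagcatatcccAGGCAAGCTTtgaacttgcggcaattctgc
Gadd45a, chr6:67037418-67037467, minus strand: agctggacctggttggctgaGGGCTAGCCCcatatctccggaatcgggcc

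The window of Cdkn1a at the more upstream of its 2 start sites held 2 half-sites, 73 to 64 and 51 to 42 bases before the start. It was the 1 window of the 13 (7.69%) with 2 half-sites spaced 0 to 13 bases apart, against 0.0731% of 32851 windows of all genes. As above, a share among chosen p53 targets says nothing about these samples. The 10 bases that follow the second half-site of Cdkn1a differ from the consensus at 1 position, so these 20 bases come close to a full element. The start site 29093769 had no match in its window. In the other 5 windows the 10 bases after the half-site differed from the consensus at 3 positions (Trp53), 5 (Mdm2) or 6 (Ccng1, Bax and Gadd45a). A pair can also lie on the other side of a half-site. In the printed sequences, the 10 bases before the half-site differ at 1 position for Ccng1 and 3 for Bax, and at more for Mdm2, Trp53 and Gadd45a. The 20 bases of Ccng1 thus come as close to a full element as those of Cdkn1a. No window of Phlda3, Sesn2, Plk2 or Bbc3 held a match, which says only that these letters were not in these windows. The match is a description of sequence, and binding of p53 was not measured in these samples.

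Trp53 itself had 197, 255 and 186 counts in sgEgfr 1 to 3 and 131, 224, 74 and 52 in sgRosa 1 to 4. These were 12.5, 16.7 and 8.13 CPM in sgEgfr 1 to 3 and 9.25, 11.7 and 8.01 CPM in sgRosa 1, 2 and 3+4. sgEgfr 2 was highest, while sgEgfr 3, the sample with the most Cdkn1a, lay beside the lowest sgRosa sample. Its log2 fold change came to 0.36 (SE 0.32, 95% confidence interval -0.39 to 1.12; 0.074 without sgEgfr 2 and 0.59 without sgEgfr 3), with means of 12.4 ± 4.28 CPM in sgEgfr and 9.65 ± 1.88 CPM in sgRosa (SD, n = 3 each).

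Mdm2, the ubiquitin ligase that holds p53 down and the feedback target most often read beside Cdkn1a, was nearly level. It had 868, 941 and 1551 counts in sgEgfr 1 to 3 and 818, 1110, 547 and 317 in sgRosa 1 to 4, which were 55.0, 61.6 and 67.8 CPM in sgEgfr 1 to 3 and 57.7, 58.0 and 54.9 CPM in sgRosa 1, 2 and 3+4. Its highest sample was only 1.23 times its lowest, against 4.95 times for Cdkn1a. The order of sgEgfr 1, 2 and 3 was the same for both genes, with sgEgfr 3 highest. The log2 fold change of Mdm2 was 0.11 (SE 0.14, 95% confidence interval -0.21 to 0.43), so that its upper limit lay below the lower limit for Cdkn1a.

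Of the other cell cycle genes, Ccng1 encodes cyclin G1, a target that feeds back on p53 through MDM2. It reached 77.3, 110 and 118 CPM in sgEgfr 1 to 3 and 119, 73.0 and 73.3 CPM in sgRosa 1, 2 and 3+4, a log2 fold change of 0.20 (SE 0.25, 95% confidence interval -0.39 to 0.79; 0.47 without sgRosa 1). Its highest sample was thus sgRosa 1, the sample with the least Cdkn1a. Gadd45a, a growth arrest and DNA damage gene, reached 12.7, 15.9 and 10.9 CPM in sgEgfr 1 to 3 and 10.7, 17.2 and 9.60 CPM in sgRosa 1, 2 and 3+4, a log2 fold change of 0.07 (SE 0.30, 95% confidence interval -0.63 to 0.77). sgRosa 2 was highest for this gene and sgEgfr 2 second. Plk2, a polo-like kinase that neuronal activity also induces, reached 47.7, 25.9 and 32.1 CPM in sgEgfr 1 to 3 and 34.4, 31.0 and 23.8 CPM in sgRosa 1, 2 and 3+4, a log2 fold change of 0.25 (SE 0.26, 95% confidence interval -0.35 to 0.85). It was highest in sgEgfr 1, the sgEgfr sample with the least Cdkn1a.

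The apoptosis genes did not separate the guides. Bax, which opens the outer mitochondrial membrane, proved the steadiest of the 10 genes, at 59.8, 62.2 and 55.2 CPM in sgEgfr 1 to 3 and 56.3, 62.2 and 59.1 CPM in sgRosa 1, 2 and 3+4. Its log2 fold change was 0.00 with a 95% confidence interval of -0.31 to 0.30. Bbc3, which encodes PUMA, a BH3-only protein that unleashes BAX, reached 5.01, 3.93 and 7.17 CPM in sgEgfr 1 to 3 and 4.30, 5.54 and 4.32 CPM in sgRosa 1, 2 and 3+4. It was highest in sgEgfr 3 and lowest in sgEgfr 2, so the spread within sgEgfr spanned all of sgRosa, and the log2 fold change came to 0.19 (SE 0.34, 95% confidence interval -0.60 to 0.97).

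The 2 targets that act on growth signalling lay slightly lower in sgEgfr, within the spread between samples. Phlda3, which competes with AKT for membrane lipids, reached 146, 180 and 138 CPM in sgEgfr 1 to 3 and 164, 202 and 164 CPM in sgRosa 1, 2 and 3+4, a log2 fold change of -0.20 (SE 0.17, 95% confidence interval -0.60 to 0.21). Sesn2, sestrin 2, a stress-induced brake on the growth kinase complex mTORC1, reached 11.0, 6.61 and 5.55 CPM in sgEgfr 1 to 3 and 10.7, 7.21 and 8.90 CPM in sgRosa 1, 2 and 3+4, a log2 fold change of -0.21 (SE 0.34, 95% confidence interval -1.01 to 0.59; -0.56 without sgEgfr 1 and -0.019 without sgEgfr 3). Both were lowest in sgEgfr 3, where Cdkn1a was highest.

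**Figure D2:**
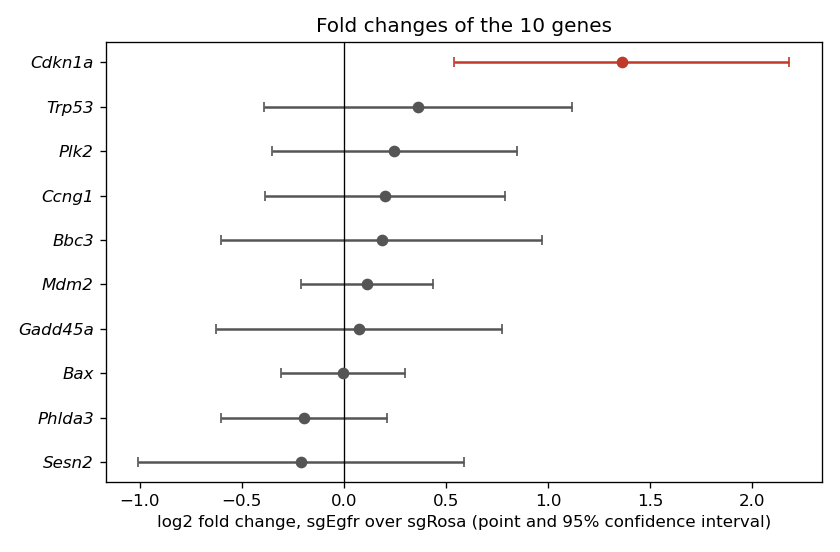
Log2 fold change, sgEgfr over sgRosa, of the 10 genes from edgeR, ordered by size, with 95% confidence intervals. Cdkn1a stands at 1.36 with an interval of 0.54 to 2.18, and the intervals of the other 9 genes include 0.

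The comparison of the intervals sets bounds on how far the other targets could have followed. For 8 of the 9 other genes the upper 95% limit lay below a log2 fold change of 1, a doubling, and the exception was Trp53 itself at 1.12. For 3 of the 9, Mdm2, Bax and Phlda3, the upper limit lay below the lower limit for Cdkn1a. For the other 6, with wider intervals at these levels and spreads, a difference as large as the lower limit for Cdkn1a was within the interval. The sign of 5 of the 9, Ccng1, Gadd45a, Plk2, Bax and Bbc3, turned when single samples or a pair of samples were left out.

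Within a sample, the ratio of Cdkn1a counts to those of another gene does not depend on how libraries are scaled. The ratio of Cdkn1a to Mdm2 was 0.564, 0.960 and 1.06 in sgEgfr 1 to 3 and 0.251, 0.355 and 0.508 in sgRosa 1, 2 and 3+4. On the log2 scale it averaged -0.27 ± 0.49 in sgEgfr and -1.49 ± 0.51 in sgRosa (SD, n = 3 each), a difference of 1.22, with an exact two-sided permutation p of 0.1, the least possible with 3 samples against 3. The ratio was higher in every sgEgfr sample for 4 of the 9 genes, Mdm2, Ccng1, Bax and Phlda3, and overlapped for Trp53, Bbc3, Sesn2, Gadd45a and Plk2. As a background, the ratio of Cdkn1a to any other gene tested had sgEgfr above sgRosa in every sample for 51.3% of 14935 genes, so the share among the p53 genes was no larger than among all genes.

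Sample by sample, the other 9 genes had smaller and differing deviations. Relative to its own mean over the 6 samples, on the log2 scale, Cdkn1a stood at -0.05, 0.88 and 1.15 in sgEgfr 1 to 3 and at -1.14, -0.64 and -0.20 in sgRosa 1, 2 and 3+4. The median of the other 9 on the same scale was 0.02, 0.07 and -0.10 in sgEgfr 1 to 3 and -0.03, 0.07 and -0.19 in sgRosa 1, 2 and 3+4. In sgEgfr 3, with the most Cdkn1a, 4 of the 9 lay above their own mean, and in sgRosa 1, with the least, 3 of the 9 did. In sgEgfr 1 and sgRosa 3+4 Cdkn1a lay within the range of the other 9, in the other 4 samples outside it. The spread of log2 levels over the 6 samples (SD) was 0.88 for Cdkn1a and 0.07 for Bax to 0.41 for Trp53 among the other 9.

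**Figure D3:**
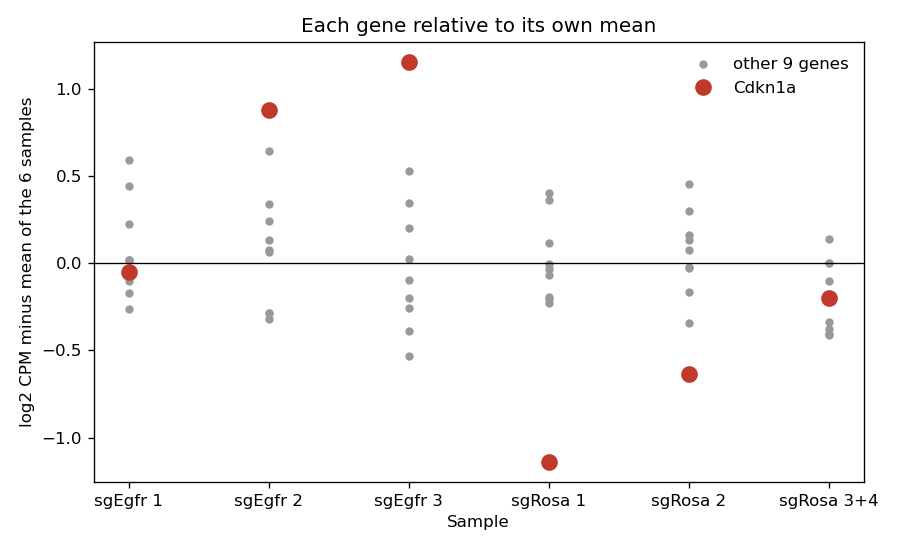
Log2 CPM of each gene minus its own mean over the 6 samples, for Cdkn1a (large red points) and the other 9 genes (grey points), with sgEgfr samples left and sgRosa samples right. Cdkn1a spans -1.14 to 1.15, while the other 9 genes stay between -0.53 and 0.64.

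Levels of different genes were set against each other only after division by exon length (CPM per kilobase of GENCODE M21 exons), and the sources used here do not name the annotation behind the counts. In sgEgfr the order was Phlda3 (108 CPM per kilobase), Bax (68.1), Ccng1 (28.9), Cdkn1a (19.8), Mdm2 (19.5), Plk2 (12.6), Gadd45a (10.8), Trp53 (6.66), Bbc3 (2.96) and Sesn2 (2.23). In sgRosa the order was the same but for Cdkn1a (7.72 CPM per kilobase), which came seventh, after Gadd45a (10.2), and before Trp53 (5.17). Cdkn1a overlapped its neighbours Ccng1 and Mdm2 in sgEgfr, and Gadd45a and Trp53 in sgRosa. Phlda3 stood above Bax, and Bax above Ccng1, in every sample of both groups. Antisense transcripts or other genes cover 10% of the exon bases of Cdkn1a, 22.1% of Bax and 19.5% of Gadd45a in GENCODE M21. Since the strand setting of the counting is not given, a part of the counts of Cdkn1a and Gadd45a could belong to the antisense transcripts. The gene that overlaps Bax lies on the same strand, so a part of the Bax counts could belong to it under any strand setting.

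A wider list of 35 other p53 targets had members on both sides of 0. Of the 29 that were tested, 13 had positive and 16 negative log2 fold changes with a median of 0.00, where 52.9% of all genes tested were positive, and 0 were called. The log2 fold changes ran from -0.49 for Tigar, a regulator of glycolysis, to 1.65 for Btg2, and 0 of the 29 had groups that did not overlap, against 7.61% of all genes. The 4 with the smallest unadjusted p were Btg2, an antiproliferative gene that is also an immediate early gene (1.65, SE 0.65), Ddit4, an mTORC1 inhibitor that glucocorticoids also induce (0.42, SE 0.22), Plk3, a polo-like kinase (-0.40, SE 0.26), and Apaf1, the scaffold of the apoptosome (-0.41, SE 0.31). Btg2 stood at 100, 325 and 782 CPM in sgEgfr 1 to 3 and 130, 167 and 86.9 CPM in sgRosa 1, 2 and 3+4. As with Cdkn1a, its highest samples were sgEgfr 3 and sgEgfr 2, but its groups overlapped, with sgEgfr 1 below sgRosa 1 and 2.

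Regulators of p53 and kinases and repair proteins of the DNA damage response were likewise balanced. Of 20 tested genes of 22, 9 had positive and 11 negative log2 fold changes with a median of -0.01, and 0 were called. The lowest was -0.70 for Brca1 (SE 0.58) and the highest 1.09 for Chek2, a DNA damage kinase gene (SE 0.94). Groups overlapped for both. The smallest unadjusted p were those of Atm, the kinase that signals double-strand breaks (-0.39, SE 0.22), Parp1, which senses breaks (0.23, SE 0.14), Xrcc5, which encodes the end-joining protein KU80 (0.41, SE 0.28), and Nbn, of the MRN complex that binds broken ends (0.29, SE 0.21). Mdm4, the partner of MDM2 in restraining p53, had 0.09 (SE 0.22), and was named after its value was seen. Groups did not overlap for 1 of the 20 (5%), against 7.61% of all genes, and this was Parp1, at 34.8, 39.1 and 35.1 CPM in sgEgfr 1 to 3 and 30.6, 30.3 and 32.3 CPM in sgRosa 1, 2 and 3+4. Trp73, a p53 family gene that did not pass the filter, had 8, 0 and 259 counts in sgEgfr 1 to 3 and 8, 0, 40 and 24 in sgRosa 1 to 4, and was named after its counts were seen. Its counts were high where ependymal markers were high, and those took 0.119% of counts in sgEgfr 3 and 0.0422% in sgRosa 3+4, against 0.00378% to 0.00962% in the other 4 samples. Cdkn1a was highest within its group in the same 2 samples, at 71.6 CPM in sgEgfr 3 and 27.9 CPM in sgRosa 3+4, and was at 59.1 CPM in sgEgfr 2, which had the lowest share of these markers (0.00378%), and their part in its difference was not tested.

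Close relatives of the 10 genes need not share their function or p53 as an inducer. Of 15 tested of 18, 8 had positive and 7 negative log2 fold changes, with a median of 0.00 and 0 called. In 3 of the 15 every sgEgfr sample lay above every sgRosa sample, as in 3.76% of all genes. Gadd45g reached 63.7, 49.4 and 142 CPM in sgEgfr 1 to 3 and 32.9, 33.9 and 42.4 CPM in sgRosa 1, 2 and 3+4 (log2 fold change 1.23, SE 0.38). Gadd45b reached 12.5, 16.2 and 11.1 CPM in sgEgfr 1 to 3 and 5.22, 10.9 and 8.01 CPM in sgRosa 1, 2 and 3+4 (0.72, SE 0.33). Their groups did not overlap, while those of Gadd45a did. Plk5, a polo-like kinase of brain cells, reached 3.87, 3.86 and 4.55 CPM in sgEgfr 1 to 3 and 1.06, 1.20 and 1.34 CPM in sgRosa 1, 2 and 3+4 (1.77, SE 0.33, unadjusted p = 0.000881, edgeR adjusted p = 0.997). Plk3, with -0.40 as above, came next by p. The other CIP/KIP inhibitors Cdkn1b (p27) and Cdkn1c (p57) had -0.39 (SE 0.26) and -0.16 (SE 0.55), and were named after their values were seen.

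Proliferation genes, whose loss would accompany a p21-dependent arrest in dividing cells, were scarce. Of 20, 11 did not pass the filter, and the cell cycle marker Mki67 reached at most 6 counts in any library and was named after its counts were seen. Of the 9 tested, 6 were positive and 3 negative with a median of 0.09 and 0 called. Those with the smallest p were the replication helicase subunits Mcm7 (0.30, SE 0.20), Mcm3 (0.32, SE 0.25), Mcm6 (0.36, SE 0.29) and Mcm4 (-0.24, SE 0.23). Groups did not overlap for Mcm7 and Mcm3, 2 of the 9, with sgEgfr higher, against 3.76% of all genes.

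Genes of the glucocorticoid, immediate early and heat shock responses were mostly higher in sgEgfr without passing the test, and their part in the difference of Cdkn1a was not tested. Of 19 tested glucocorticoid response genes, Cdkn1a among them, 19 had positive log2 fold changes with a median of 0.50, and 0 were called. Groups did not overlap for 4 of the 19, again with Cdkn1a among them and with sgEgfr higher, against 3.76% of all genes. This list took 0.415%, 0.390% and 0.433% of counts in sgEgfr 1 to 3 and 0.173%, 0.340% and 0.319% in sgRosa 1, 2 and 3+4. The share was lowest in sgRosa 1, as for Cdkn1a. Within sgEgfr the share was lowest in sgEgfr 2, while Cdkn1a was lowest in sgEgfr 1. Within sgRosa the share was highest in sgRosa 2, while Cdkn1a was highest in sgRosa 3+4. The leading genes of this list were Tsc22d1, a transcriptional regulator (0.72, SE 0.17), Cdkn1a, the phosphatase gene Dusp1 (1.15, SE 0.46) and the arrestin-domain gene Arrdc2 (0.90, SE 0.37). Immediate early genes, which dissociation of tissue also induces, were positive in 16 of 20 with a median of 0.72 and 0 called. Among these 20, 0 had groups that did not overlap, against 7.61% of all genes. Immediate early genes took 0.279%, 0.537% and 0.609% of counts in sgEgfr 1 to 3 and 0.189%, 0.364% and 0.189% in sgRosa 1, 2 and 3+4. Within sgEgfr their share was lowest in sgEgfr 1 and highest in sgEgfr 3, as for Cdkn1a. Within sgRosa it was highest in sgRosa 2, while Cdkn1a was highest in sgRosa 3+4. The share in sgRosa 2 was above that in sgEgfr 1, so the groups overlapped. The leading immediate early genes were the transcription factor genes Fos (1.32, SE 0.44), Egr1 (1.18, SE 0.44), Atf3 (1.89, SE 0.71) and Nr4a1 (0.98, SE 0.37).

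Heat shock genes were positive in 11 of 14 with a median of 0.13 and 0 called, and took 0.462% to 0.540% of counts in sgEgfr and 0.330% to 0.529% in sgRosa. The chaperone genes Hspe1 (0.48, SE 0.18), Hspb1 (1.61, SE 0.63), Hsph1 (0.50, SE 0.23) and Dnajb1 (0.81, SE 0.48) led this list. Groups did not overlap for 2 of the 14 heat shock genes, with sgEgfr higher, against 3.76% of all genes. Markers of other cell types were positive in 9 of 10 for oligodendrocyte precursors, 12 of 12 for microglia, 9 of 12 for endothelium, 11 of 11 for neurons and 10 of 10 for ependyma, against 9 of 15 for astrocytes and 6 of 12 for oligodendrocytes. Their summed shares overlapped between the groups for oligodendrocyte precursors (0.106% to 0.164% in sgEgfr, 0.0867% to 0.143% in sgRosa), microglia (0.0211% to 0.0450% in sgEgfr, 0.0165% to 0.0335% in sgRosa), endothelium (0.00831% to 0.0102% and 0.00562% to 0.00873%), neurons (0.0430% to 0.0549% and 0.0310% to 0.0468%) and ependyma (0.00378% to 0.119% and 0.00533% to 0.0422%), with none of these markers at 0 in all samples. Single markers did not overlap, with sgEgfr higher, for 4 of 12 of endothelium (Flt1, Ly6a, Ly6c1 and Itm2a), 2 of 11 of neurons (Eno2 and Stmn2) and 1 of 10 of oligodendrocyte precursors (Pdgfra), against 3.76% of all genes, and 0 were called. Mitochondrially encoded genes took 8.48%, 10.3% and 13.3% of counts in sgEgfr 1 to 3 and 14.6%, 6.10% and 11.2% in sgRosa 1, 2 and 3+4. Which cells held the Cdkn1a transcripts was not measured, and the part of cell composition in its difference was not tested.

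**Figure D4:**
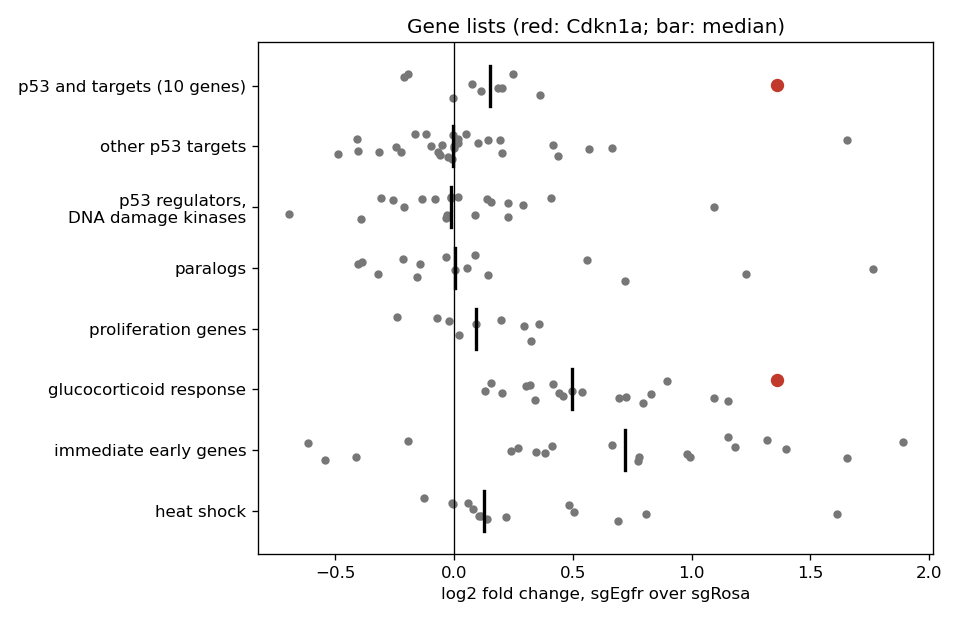
Log2 fold change, sgEgfr over sgRosa, of the tested genes of 8 lists, one point a gene, with the median as a black bar and Cdkn1a in red in the 2 lists that hold it. The p53 lists centre near 0, with medians of 0.00 for other p53 targets and -0.01 for p53 regulators, and those of glucocorticoid response and immediate early genes lie at 0.50 and 0.72.

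The genes whose profile over the 6 samples was most like that of Cdkn1a were looked up across all 14935 other genes tested, by the root mean square difference of log2 CPM after each gene was centred on its own mean. They were Ube2t, a ubiquitin-conjugating enzyme of the Fanconi anaemia DNA repair pathway (0.212), Adm, the vasoactive peptide adrenomedullin (0.285), Rgs2, a regulator of G protein signalling (0.288), Hpgd, which inactivates prostaglandins (0.293), and Zfyve28, an endosomal protein (0.294). Ube2t reached only 0.698, 1.37 and 2.01 CPM in sgEgfr 1 to 3 and 0.423, 0.470 and 0.890 CPM in sgRosa 1, 2 and 3+4, so its likeness rests on few counts. Rgs2 reached 7.17, 10.8 and 12.2 CPM in sgEgfr 1 to 3 and 4.02, 5.70 and 5.28 CPM in sgRosa 1, 2 and 3+4. Among the 9 other p53 genes the nearest was Mdm2 (0.730, place 2406 of 14935) and the farthest Sesn2 (1.09, place 12843). By this measure none of the p53 genes was among the genes most like Cdkn1a. The measure counts the size of a deviation as well as its direction, so a steady gene such as Bax or Mdm2 could not come near Cdkn1a. These places therefore do not tell whether the directions of change differed.

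**Figure D5:**
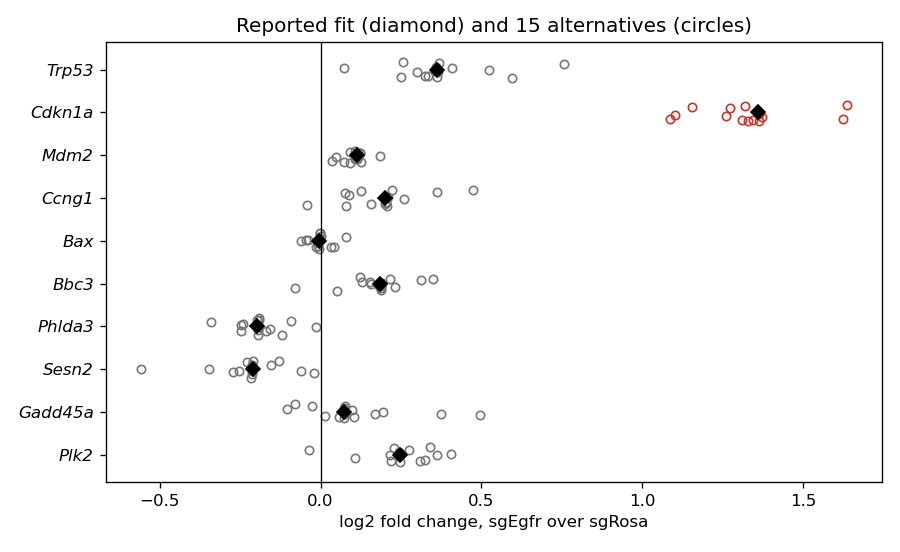
Log2 fold change, sgEgfr over sgRosa, of each of the 10 genes in the reported fit (black diamond) and under 15 other processing choices (open circles, red for Cdkn1a). Cdkn1a ranges from 1.08 to 1.64, and the other 9 genes range from -0.56 to 0.76.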

How the data were processed

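The files deposited by the authors hold raw read counts by gene symbol, in 1 joint table and in 7 files of 1 library each, with identical values. Build mm10 and, among other tools, STAR 2.7.5c, fastp 0.23.2 and featureCounts 2.0.1 are named per the submitters' processing notes. The sources used here give no annotation, strand setting or rule for reads with several matches.

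Counts of sgRosa 3 and 4 were summed. Genes were kept with filterByExpr (minimum count 10, minimum total 15), TMM-scaled and tested in edgeR 4.0.16 (glmQLFit, glmQLFTest; R 4.3.3) with a design of guide alone and Benjamini-Hochberg adjustment over 14936 genes. Log2 CPM used a prior count of 2. SEs were the log2 fold change over the root of F. Intervals cover the spread between samples, and floors counting error only. Lists are described by counts and medians, without a set test. The members and lists were chosen with earlier results of these data known. Named genes were the 10 members, up to 4 per wider list by smallest p, and the 5 genes most like Cdkn1a. Tigar, Brca1, Chek2, Mdm4, Cdkn1b, Cdkn1c, Trp73, Mki67 and the markers that did not overlap were named after their values were seen. The steps were tested on simulated counts.

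Alternatives were other scaling, other filters, DESeq2 1.42.0, limma-voom (limma 3.58.1), 7 separate libraries, the replicate number as a block, and samples left out. Promoter windows came from RefSeq (GRCm38.p6), with all 10 members matched, and exon lengths from GENCODE M21. Figures were drawn with matplotlib 3.10.9.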

Additional observations from a re-analysis of the deposited data

How the results depend on the processing

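Under all 15 alternatives 0 genes were called, and Cdkn1a stayed higher in sgEgfr without a call, with log2 fold changes of 1.08 to 1.64 (adjusted p from 0.418 with DESeq2 to 1). It was 1.36 with other size factors (RLE), 1.31 with library totals, 1.26 with 7 separate libraries and 1.10 to 1.64 with each sample left out, lowest without sgEgfr 3 and highest without sgEgfr 1. The genes with an unadjusted p under 0.05 numbered 401 with edgeR, 500 with DESeq2, 418 with limma-voom, 581 with 7 separate libraries and 236 to 960 with each sample left out, the highest without sgRosa 3 and 4, and 1337 without sgRosa 2 and sgEgfr 3 together. With each sample left out, Trp53 ran from 0.074 to 0.59, Mdm2 from 0.036 to 0.18, Phlda3 from -0.34 to -0.091 and Sesn2 from -0.56 to -0.019, with no change of sign. Signs turned for the other 5. Without sgRosa 2 and sgEgfr 3 together, Trp53 was 0.76 (edgeR adjusted p = 0.526, before adjustment 0.0318), Phlda3 -0.013, Ccng1 -0.042 and Bax 0.079, and with no filter on low counts Bax was 0.00022. With each sample left out, Ccng1 ran from 0.076 to 0.47 (highest without sgRosa 1, edgeR adjusted p = 1, before adjustment 0.0737), Bax from -0.061 to 0.043 (positive without sgRosa 2 or sgEgfr 3), Bbc3 from -0.081 to 0.35 (negative without sgEgfr 3), Plk2 from -0.036 to 0.41 (negative without sgEgfr 1) and Gadd45a from -0.10 to 0.37 (negative without sgEgfr 2, sgRosa 1 or, at -0.081, sgRosa 3 and 4). The cause was not tested. Samples with the same number did not all deviate together (r of -0.106, 0.517 and 0.549 over genes for numbers 1, 2 and 3), and sgEgfr 1 correlated best with sgRosa 2 (0.255), so the numbers were not taken as pairs. With the replicate number as a block, 0 genes were called, 705 had an unadjusted p under 0.05, and Cdkn1a had 1.33 (adjusted p = 0.701). Leaving out samples leaves 2 in a group.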
